A study of Acropora aff. hyacinthus sp. E JTL-2012 with 12 samples.

Results

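Matrix metalloproteinases, astacin proteases, ADAM and ADAMTS proteases and the tissue inhibitors of metalloproteinases were examined in fragments of the tabletop coral Acropora aff. hyacinthus. They were taken as every contig of the assembled transcriptome whose description names one of these proteins, which gave 59 of 16980 contigs, and no description of a snake protein had to be left out. The set held 3 matrix metalloproteinase contigs, 6 inhibitor contigs, 9 ADAM contigs, 11 ADAMTS contigs and 30 contigs of the astacin family. The astacin family comprised 15 contigs of tolloid-like proteins, 14 of the nas type and 1 of Meprin A subunit beta. Several contigs carry the same description (8 are called Zinc metalloproteinase nas-13, 6 Disintegrin and metalloproteinase domain-containing protein 10), and such contigs can be pieces of one transcript, alleles or separate genes.

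The proteases are zinc peptidases that work mostly outside the cell or at its surface. Matrix metalloproteinases cleave collagens and other proteins of the extracellular matrix, which in corals forms the mesoglea between the outer and inner epithelium. Tissue inhibitors of metalloproteinases (TIMPs) bind the active site of these enzymes. Tolloid-type astacins cut procollagen and, in flies and vertebrates, the BMP antagonist chordin (Sog in flies), while ADAM proteases release the outer parts of membrane proteins. In Hydra, another cnidarian, matrix metalloproteinases and astacins take part in regeneration.

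The libraries came from 6 colonies, each with a fragment in pool 300 and a fragment in pool 400, back-reef pools in which pool 300 is known for the wider swings of water temperature. Corals 2, 7 and 75 came from pool 300 (origin 300) and corals 40, 68 and 70 from pool 400 (origin 400), so that each origin gave 3 fragments living in pool 300 and 3 living in pool 400. All fragments, also those staying in their home pool, were polyp tissue collected close to noon on one day, more than a year after transplantation. Each colony is 1 animal, so a group of 3 corals stands for 3 genotypes, and in bulk polyp RNA a change in the number of cells of a type cannot be told apart from a change in RNA per cell.

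Values are read counts divided by a library factor, as deposited. The 12 libraries held 557339 to 1643526 recovered reads, and 1 read was worth between 0.586 and 1.66 units. The pool 400 libraries are deposited as adjusted values, and that of coral 70 lay 1.56 times above the scale that median ratios of the reads would give, where the other pool 400 libraries lay at 0.777 to 1.12 times that scale. The median pool difference of all contigs in coral 70 was -0.53 on the log2 scale, and 0.092 after median-ratio rescaling of the reads. Rescaling also set the median of all contigs at -0.018 in origin 300 corals, against 0.13 as deposited, and at 0.034 in origin 400 corals, against -0.087. The fragments labelled as corals 40 and 68 resembled each other across their numbers. In the pairs as labelled, 33 contigs (coral 40) and 47 contigs (coral 68) had no read in one fragment and a value of 20 or more in the other. The crossed pairs had 14 and 12 such contigs, and each of the other 4 corals had 1 to 11. An exchange within a pool leaves the pool of every fragment, and the mean pool difference over both corals, as they are. Results are therefore given also with the crossed pairs or without corals 40 and 68 where this changes them. In origin 300 corals, cnidocyte markers (9 contigs, none described as minicollagen or nematogalectin) summed to 336 to 385 in pool 300 and 318 to 414 in pool 400, and the muscle list of 30 contigs to 2097 to 2289 in pool 300 and 1639 to 2159 in pool 400. For origin 400 corals the muscle sums were 1956 to 2149 in pool 300 and 1402 to 2835 in pool 400. No contig of these lists, nor of those for germ line, sperm and cilia, and Symbiodinium, passed in any comparison. At most 0.554% of all contigs did, and only 4 cnidocyte and 2 Symbiodinium contigs were tested. Median log2 pool differences in origin 300 corals were -0.13 for cnidocytes, 0.42 for muscle, 0.029 for germ line, 0.11 for sperm and cilia and -0.16 for Symbiodinium. For origin 300 minus origin 400 the Symbiodinium median was 1.54, beside -0.10 for all contigs. The part of cell composition in the results was not tested.

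Tests were run where the mean value reached 10, which kept 41 of the 59 members and 11903 of all contigs. Differences are on the log2(value + 1) scale, pool 300 minus pool 400 or origin 300 minus origin 400, with limma's moderated test and Benjamini-Hochberg adjustment over all tested contigs.

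The first comparison asked which members differed between the pools of residence. In origin 300 corals, a matrix metalloproteinase and a TIMP contig fell strongly in pool 300, and 0 members rose. These were Matrix metalloproteinase-24 (contig44450), described after a membrane-anchored enzyme of mammals, with a log2 difference of -2.36, and Metalloproteinase inhibitor 4 (contig169856), described after mammalian TIMP-4, with one of -2.44. They were 2 of 41 members, where 0.554% of all contigs passed in this comparison. The members were chosen with earlier results of these data known, and contig44450 was given with that choice. The 2 calls are thus no independent result about the set. The enzyme and the inhibitor contig thus moved in the same direction. Most contigs that passed in this comparison shared it, with 64 lower and 2 higher in pool 300.

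**Figure D1:**
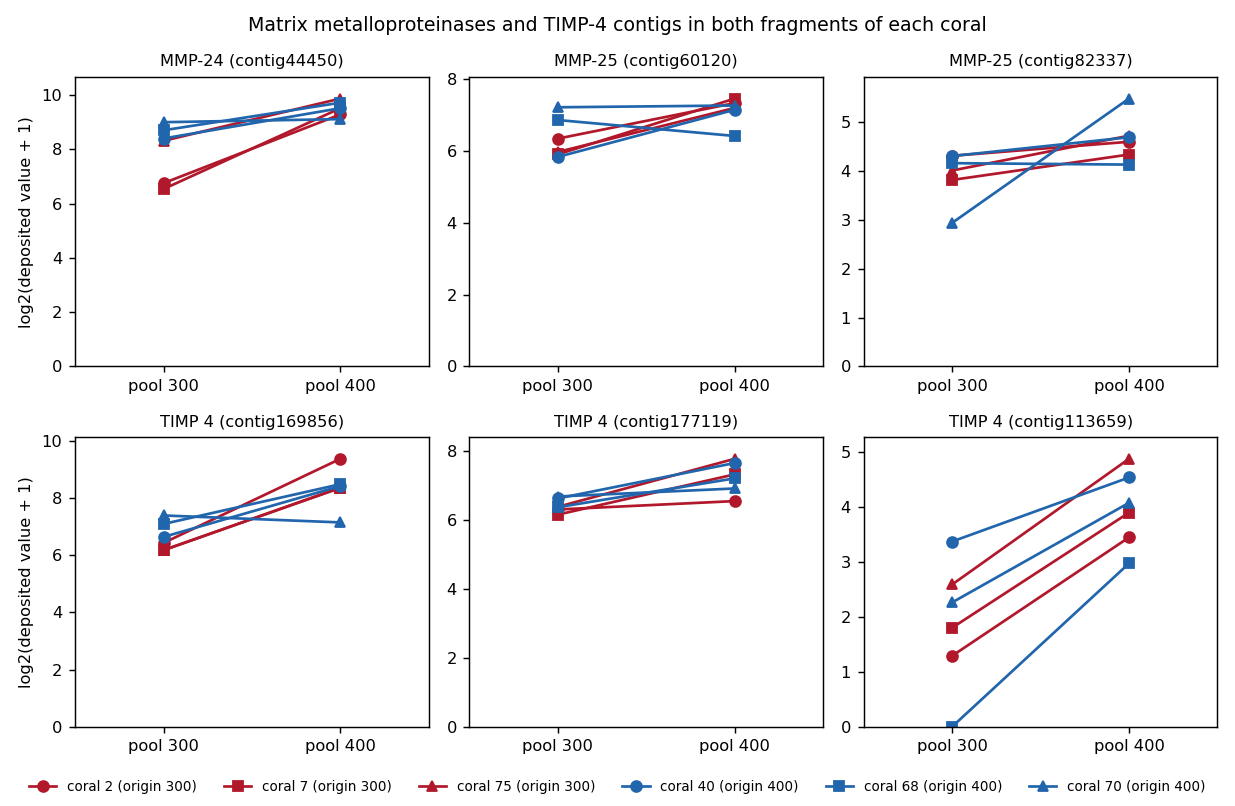
Log2(deposited value + 1) of the 3 matrix metalloproteinase contigs (top) and the 3 Metalloproteinase inhibitor 4 contigs (bottom) in the pool 300 and pool 400 fragment of each coral, with 1 line per coral (red, origin 300; blue, origin 400). The lines of Matrix metalloproteinase-24 rise to pool 400 in all 6 corals, least in coral 70 (difference -0.11), and TIMP-4 contig113659 has no read in the pool 300 fragment of coral 68.

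Matrix metalloproteinase-24 had values of 107, 92.2 and 318 in the pool 300 fragments of corals 2, 7 and 75, against 626, 734 and 939 in their pool 400 fragments. In corals 40, 68 and 70 it had 338, 417 and 513 in pool 300 and 735, 846 and 555 in pool 400. All 6 pool 300 fragments lay below all 6 pool 400 fragments, and corals 2 and 7 in pool 300 were the lowest of all. This separation was seen in 1 of 41 members and in 0.47% of all contigs, and it was lost after median-ratio rescaling, where coral 70 had 524 in pool 300 and 363 in pool 400. Between 74 and 889 reads lay behind each value.

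The mean of origin 300 corals was 172 ± 126 in pool 300 against 766 ± 159 in pool 400 (SD, n = 3 corals). The contig fell there, with a log2 difference of -2.36 (limma SE 0.26, adjusted p = 0.00429). The fall held with rescaling (limma adjusted p = 0.0332), with edgeR on the recovered reads (adjusted p = 0.0414) and without corals 40 and 68 (limma adjusted p = 0.00289), while without coral 2 the limma adjusted p was 0.0606. The mean of origin 400 corals was 422 ± 87.7 in pool 300 against 712 ± 147 in pool 400 (SD, n = 3), and the log2 difference of -0.75 (SE 0.26) did not pass (limma adjusted p = 0.9997) and stood at -0.11 in coral 70 alone. The effect in origin 300 corals minus that in origin 400 corals was -1.61 (SE 0.37), which did not pass either (limma unadjusted p = 0.00147, adjusted p = 0.9996). Over all 6 corals the log2 difference was -1.55 (limma SE 0.31, adjusted p = 0.0827), and it passed with the crossed pairs of corals 40 and 68 (limma adjusted p = 0.0468) and without coral 70 (-1.84, limma adjusted p = 0.0240).

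Metalloproteinase inhibitor 4 (contig169856) had 85.4, 71.6 and 71.4 in the pool 300 fragments of corals 2, 7 and 75, against 666, 328 and 331 in their pool 400 fragments. In corals 40, 68 and 70 the values were 99.1, 136 and 167 in pool 300 and 343, 359 and 141 in pool 400. The contig was lower in pool 300 in 5 corals. In coral 70 it was higher there, by 0.24 on the log2 scale and by 0.88 after rescaling, so the pools overlapped over the 6 corals. Origin 300 corals had a mean of 76.2 ± 8.04 in pool 300 against 441 ± 194 in pool 400 (SD, n = 3). There the contig fell, with a log2 difference of -2.44 (limma SE 0.34, adjusted p = 0.00818). That call was lost or kept by setting: the limma adjusted p was 0.0502 after rescaling, 0.119 without coral 2 and 0.00117 without corals 40 and 68, and edgeR gave an adjusted p of 0.0547.

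The same inhibitor contig had a mean of 134 ± 34.2 in pool 300 against 281 ± 121 in pool 400 in origin 400 corals (SD, n = 3), with a log2 difference of -0.98 (limma SE 0.34, adjusted p = 0.9997). The single corals differed widely, at -1.78 in coral 40, -1.39 in coral 68 and 0.24 in coral 70. The difference between origins was -1.46 (limma SE 0.47, adjusted p = 0.9996). Over all 6 corals the log2 difference was -1.71 (limma SE 0.33, adjusted p = 0.0701), and it passed with the crossed pairs of corals 40 and 68 (limma adjusted p = 0.0321) and without coral 70 (limma adjusted p = 0.0057).

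The other contigs described as Metalloproteinase inhibitor 4 had differences of the same sign. With the minimum mean for testing they did not pass or were not tested. Another Metalloproteinase inhibitor 4 contig (contig177119) had a lowest, median and highest value of 70.4, 82.2 and 102 in pool 300, against 92.7, 153 and 219 in pool 400. It was lower in pool 300 in all 6 corals, by between 0.23 and 1.40 on the log2 scale, at a mean difference of -0.82 (limma SE 0.18, adjusted p = 0.119), and after rescaling in 5, with 0.40 in coral 70. The log2 difference was -0.94 in origin 300 corals and -0.70 in origin 400 corals (limma adjusted p = 0.375 and 0.9997).

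The remaining Metalloproteinase inhibitor 4 contig (contig113659), chosen after its values were seen, had a mean of 9.97 and so lay just under the minimum for testing. It had 1.45, 2.49, 5.03, 9.38, 0 and 3.81 in the pool 300 fragments of corals 2, 7, 75, 40, 68 and 70, against 9.94, 14.0, 28.5, 22.3, 6.87 and 15.9 in their pool 400 fragments. It was lower in pool 300 in all 6 corals, also after rescaling. With the crossed pairs it was lower in 5, and the pair with the pool 300 fragment of coral 40 was higher in pool 300, at 0.40. These values rest on 0 to 16 reads in pool 300 and 5 to 27 in pool 400, and the 0 of coral 68 allows a value of up to 3.61. With no minimum mean it passed over 6 corals, at a log2 difference of -2.09 (limma SE 0.36, adjusted p = 0.0423), together with contig169856 (limma adjusted p = 0.0497), in a fit where 0.342% of all contigs passed.

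Matrix metalloproteinase-25, described after a membrane-anchored leukocyte enzyme of mammals, had 2 contigs. For contig60120 the pool 300 fragments of corals 2, 7 and 75 had 79.6, 58.5 and 61.4, against 159, 174 and 145 in pool 400. In corals 40, 68 and 70 it had 55.7, 114 and 147 in pool 300 and 140, 83.9 and 152 in pool 400. The fragments of origin 300 corals did not overlap between pools, those of origin 400 corals did. The share of all contigs that separate in this way within 1 origin was not counted. In origin 300 corals the log2 difference was -1.25 (limma SE 0.31, adjusted p = 0.201), and it passed with the crossed pairs (limma adjusted p = 0.0332) and without corals 40 and 68 (limma adjusted p = 0.0269).

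The other contig of Matrix metalloproteinase-25 (contig82337) rested on 7 to 63 reads a library. Its lowest, median and highest values were 6.66, 16.0 and 18.8 in pool 300 and 16.5, 24.0 and 43.6 in pool 400. The log2 difference over 6 corals was -0.74 (limma SE 0.34, adjusted p = 0.9996), with -2.54 in coral 70 and 0.03 in coral 68. All 3 matrix metalloproteinase contigs were thus lower in pool 300 on average, in corals of both origins and under all 3 scalings (deposited, median-ratio, edgeR). As deposited, 33.6% of all contigs were lower in origin 300 corals and 61.2% in origin 400 corals. After rescaling, contig60120 had a mean of -0.18 in origin 400 corals, with -1.53 in coral 40, 0.40 in coral 68 and 0.59 in coral 70. Over 6 corals the TIMP-4 contigs were also lower in pool 300, and the 2 tested contigs described after TIMP-3 were not, though with edgeR 3 of the 4 inhibitor contigs were lower.

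Metalloproteinase inhibitor 3, described after a TIMP that binds to the extracellular matrix in mammals, had 2 tested contigs. Contig69983 had 288, 215, 104, 152, 350 and 199 in the pool 300 fragments of corals 2, 7, 75, 40, 68 and 70, against 263, 275, 183, 5.78, 745 and 368 in their pool 400 fragments. The pools overlapped throughout, and the low value was the pool 400 fragment of coral 40, with 7 reads where the other libraries had 103 to 542. Pool differences ran from -1.09 in coral 68 to 4.50 in coral 40, with a mean of 0.25 (limma SE 0.62, adjusted p = 0.9996), and the crossed pairs of corals 40 and 68 gave -2.28 and 5.69. Contig169291 had a lowest, median and highest value of 44.3, 74.0 and 94.1 in pool 300 and 27.5, 55.1 and 143 in pool 400, also with overlap. A remaining contig of this inhibitor (contig116697) had 0 to 12 reads a library.

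Across all tested members, 14 were lower and 27 higher in pool 300 over 6 corals, with a median log2 difference of 0.066 beside 0.030 for all contigs, of which 55.6% were higher. With edgeR 20 members were lower and 21 higher, at a median of 0.0031. Over 6 corals 0 of 41 members passed limma, where 0.344% of all contigs did, and edgeR passed 0 as well. There 7 members (17.1%) had a limma unadjusted p under 0.05, where 4.87% of all contigs did. In origin 400 corals limma passed 0 members and 0% of all contigs, and edgeR passed 0 members. A limma unadjusted p under 0.05 was found there in 3 members (7.32%) and in 2.05% of all contigs. For the difference between origins in the pool effect, limma passed 0 members and 0% of all contigs, and edgeR passed 0 members. In that comparison 2 members (4.88%) had a limma unadjusted p under 0.05, where 1.77% of all contigs did. The families differed in their medians: in origin 300 corals these were -1.25 for the 3 matrix metalloproteinases, -0.64 for the 4 inhibitors, 0.021 for the 9 ADAM contigs, 0.18 for the 5 ADAMTS contigs and 0.33 for the 20 astacins, beside 0.13 for all contigs.

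**Figure D2:**
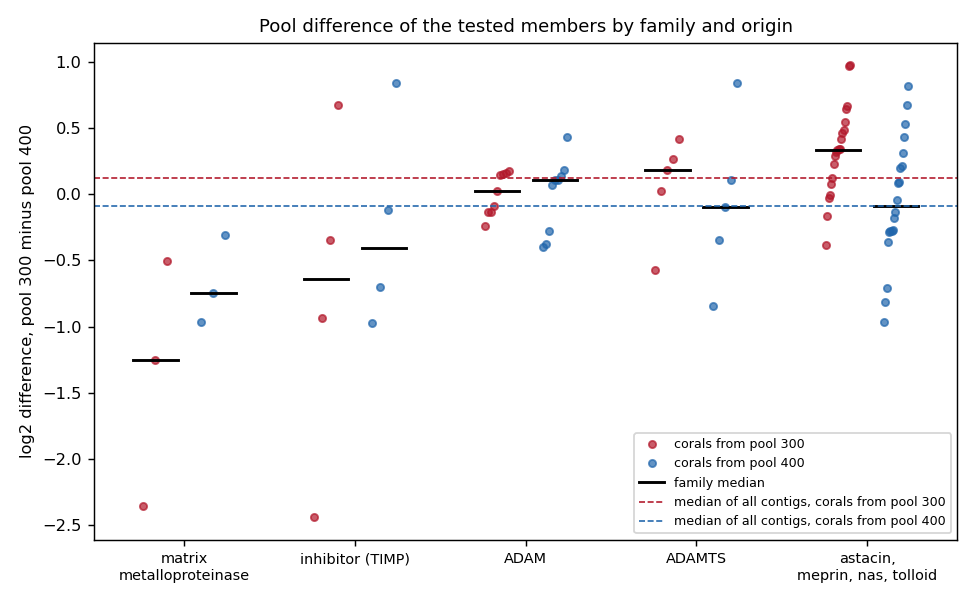
Log2 difference between pools (pool 300 minus pool 400) of each tested member, by family, with origin 300 in red and origin 400 in blue. Black bars are family medians and dashed lines the medians of all tested contigs (0.13 in origin 300 corals and -0.087 in origin 400 corals), and the matrix metalloproteinases lie below both lines in both origins.

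Of the astacins in origin 300 corals, 0 passed. There 16 of 20 were higher in pool 300, where 66.4% of all contigs were, and 15 of 20 after rescaling, where 47.8% of all contigs were, and 14 of 20 with edgeR, where 48.9% were. In origin 400 corals it was 9 of 20, where 38.8% of all contigs were, and 10 of 20 after rescaling, where 54.2% were. Zinc metalloproteinase nas-13 (contig118532), described after a nematode astacin, had a lowest, median and highest value of 84.4, 116 and 164 in pool 300 and 69.8, 83.0 and 101 in pool 400. It was higher in pool 300 in all 6 corals, at a log2 difference of 0.43 (limma SE 0.15, adjusted p = 0.623), though after rescaling this held in 4.

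It was the 1 tested member higher in pool 300 in all 6 corals, and contig44450 and contig177119 were the 2 that were lower in all 6, where 1.82% and 1.76% of all contigs did so. With the crossed pairs contig112801 was higher in all 6 as well and contig60120 lower in all 6, which made 2 and 3 members, where 1.34% and 1.72% of all contigs did so. After rescaling the member higher in all 6 was contig104364 and the member lower in all 6 was contig82337. Of all 11903 tested contigs, 183 were then higher and 221 lower in all 6. A pair of contigs of Tolloid-like protein 1 (contig73956 and contig112801), chosen after their values were seen, are the remaining astacins in which the pool took the largest share of the spread. Contig73956 had a lowest, median and highest value of 16.9, 33.1 and 53.9 in pool 300 and 7.85, 18.4 and 27.0 in pool 400. Its log2 difference was 0.82 (limma SE 0.32, adjusted p = 0.835) and did not pass, with overlap between the pools.

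Over the 20 tested astacins the log2 pool differences over 6 corals lay between -0.67 (Tolloid-like protein 2 contig112861) and 0.89 (nas-14 contig185154). Meprin A subunit beta (contig145784), described after a membrane-bound astacin of mammalian kidney and intestine, had a lowest, median and highest value of 39.96, 76.2 and 94.0 in pool 300 and 62.8, 79.7 and 121 in pool 400. The pools overlapped, and the corals spread from -1.57 in coral 70 to 0.54 in coral 40 (0.42 at most with the crossed pairs), with 79.1% of the sum of squares in the residual. Nas-39 (contig153424) had a log2 difference of -0.37, with -0.03 in origin 300 corals and -0.71 in origin 400 corals. The 3 contigs of the dorsal-ventral patterning tolloid-like protein 1, named after the role of tolloid in the embryonic axis of flies, had log2 differences of 0.15 (contig177174), 0.02 (contig211253) and -0.41 (contig210003). The deposited values of Meprin A subunit beta, nas-39 and these 3 tolloid contigs were lower in pool 300 in coral 70, where the median of all contigs was -0.53.

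**Figure D3:**
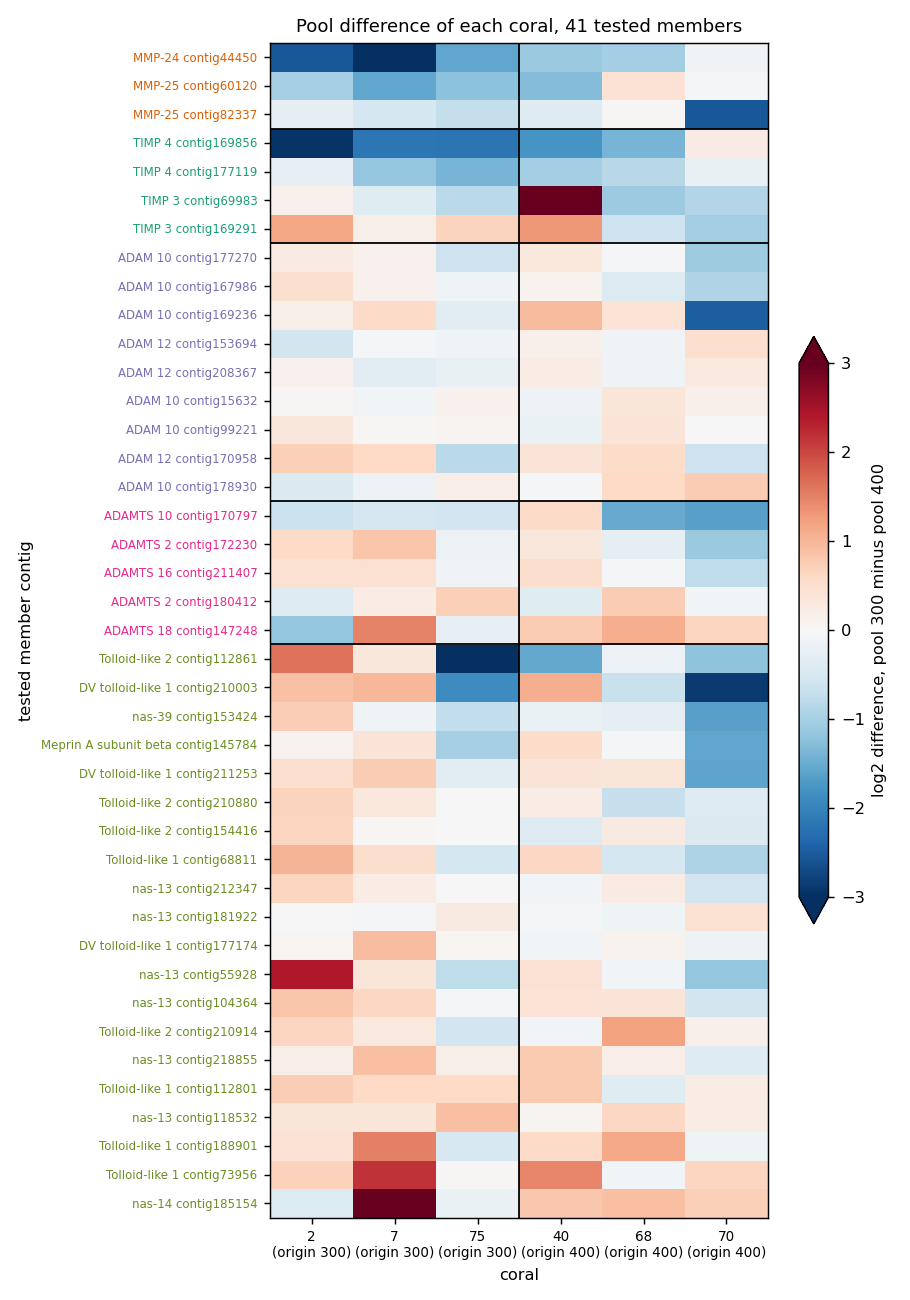
Log2 difference between pools (pool 300 minus pool 400) of the 41 tested members (rows, grouped by family and coloured by it) in each of the 6 corals (columns, with the colour scale ending at -3 and 3). Blue cells, lower in pool 300, run along the rows of Matrix metalloproteinase-24 and TIMP-4 contig169856, palest (-0.11) or turned to red (0.24) in coral 70. The astacin rows are mostly blue in coral 70 and red in corals 2 and 7. Medians of all contigs were shifted the same way as deposited, at -0.53 in coral 70, 0.25 in coral 2 and 0.21 in coral 7. After rescaling that of coral 70 was 0.092.

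None of the 9 ADAM contigs passed in any comparison, and their log2 pool differences over 6 corals lay between -0.18 (contig177270) and 0.15 (contig178930). Disintegrin and metalloproteinase domain-containing protein 10, which cleaves Notch receptors in animals, was represented by 6 contigs. Contig99221 had a lowest, median and highest value of 116, 173 and 209 in pool 300 and 112, 160 and 175 in pool 400, a log2 difference of 0.11 (SE 0.12). Contig15632 had 101, 157 and 176 in pool 300 and 113, 135 and 166 in pool 400, a log2 difference of 0.07 (SE 0.12). The pools overlapped in both and the limma adjusted p was 0.9996, and each value rested on at least 100 reads. Nas-13 (contig181922), an astacin with the same flat profile, had 144, 198 and 235 in pool 300 and 149, 155 and 238 in pool 400, a log2 difference of 0.08 (SE 0.12). ADAM 10 contig178930, with 39.9 to 94.1 in pool 300 and 41.3 to 128 in pool 400, had its highest value in the pool 400 fragment of coral 2.

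ADAM 10 contig169236 differed by -2.48 between the pools in coral 70, with 4.97 to 47.1 in pool 400 over the 6 corals, and by 0.94 in coral 40 (0.65 with the crossed pair). Disintegrin and metalloproteinase domain-containing protein 12, described after a mammalian protein of muscle and bone development, had 3 contigs, with log2 pool differences of -0.03 (contig153694), 0.00 (contig208367) and 0.14 (contig170958). In contig208367 the lowest, median and highest values were 11.7, 18.8 and 36.2 in pool 300 and 9.92, 20.4 and 33.1 in pool 400. Its differences within single corals lay between -0.32 and 0.29, and with the crossed pairs between -0.85 and 0.98, and 88.4% of its sum of squares lay between corals of one origin, or 62.5% with the crossed pairs.

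The ADAMTS contigs, secreted proteases with thrombospondin motifs, had no member that passed. The contig named after motifs 10 (contig170797) had 63.7, 56.0, 28.2, 36.3, 31.3 and 38.1 in the pool 300 fragments of corals 2, 7, 75, 40, 68 and 70, against 99.4, 80.2, 42.2, 24.0, 90.7 and 119 in pool 400. It was lower in pool 300 in 5 corals and higher in coral 40, and also in 5 with the crossed pairs. Its log2 difference was -0.71 over 6 corals (limma SE 0.27, adjusted p = 0.827), -0.57 in origin 300 corals and -0.85 in origin 400 corals. The contig named after motifs 2 (contig180412), described after the procollagen N-proteinase of mammals, ran from 45.7 to 132 in pool 300 and from 39.1 to 174 in pool 400, with coral 2 highest in both pools. The contig named after motifs 18 (contig147248) differed by -1.16 in coral 2 and 1.49 in coral 7, with a log2 difference of 0.84 in origin 400 corals. That named after motifs 16 (contig211407) ran from 59.0 to 155 in pool 300 and from 61.3 to 161 in pool 400.

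**Figure D4:**
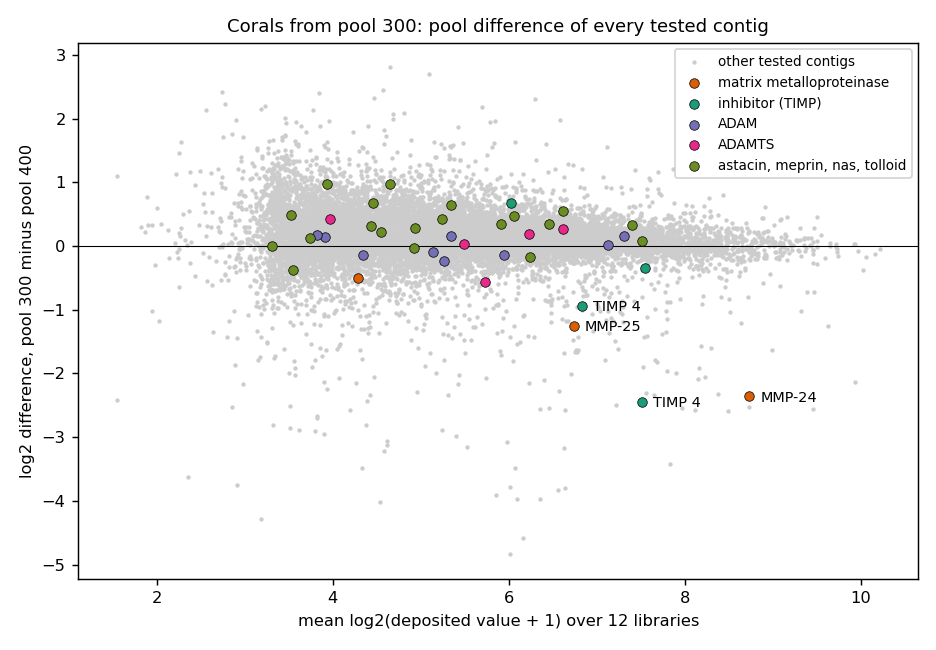
Log2 difference between pools (pool 300 minus pool 400) in origin 300 corals against the mean log2(deposited value + 1) over 12 libraries, for all 11903 tested contigs (grey) and the 41 tested members (coloured by family). Matrix metalloproteinase-24 at -2.36 and TIMP-4 contig169856 at -2.44 stand far below most contigs of like mean, and most astacins lie near or above 0.

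The second comparison asked what stayed with the pool a coral came from, on the means of each coral. By limma 0 of 41 members passed, where 0.0336% of all contigs did, and edgeR also passed 0. A limma unadjusted p under 0.05 was found in 2 members (4.88%) and in 2.64% of all contigs. The origins did not separate in any tested member: 0 had all origin 300 fragments below all origin 400 fragments (0.302% of all contigs) and 0 had them all above (0.143%). The median log2 difference was -0.10 for the members and -0.10 for all contigs.

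The members of smallest p were Matrix metalloproteinase-24, with coral means of 469 ± 140 for origin 300 against 567 ± 55.5 for origin 400 (SD, n = 3), and Zinc metalloproteinase nas-14. The log2 difference of Matrix metalloproteinase-24 was -0.70 (limma SE 0.29, adjusted p = 0.998), and its values in pool 400 overlapped between origins. In pool 300 the highest value of origin 300 corals was 318 and the lowest of origin 400 corals 338. The share of all contigs that separate in this way was not counted. Nas-14 (contig185154) had coral means of 13.7 ± 6.92 for origin 300 against 21.0 ± 2.90 for origin 400 (SD, n = 3), a log2 difference of -0.92 (limma SE 0.40, adjusted p = 0.998). Coral 7 was split between its fragments, with 40.5 in pool 300 and 2.62 in pool 400, the highest and the lowest value of this contig.

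Tolloid-like protein 2 (contig210880) had coral means of 150 ± 24.5 for origin 300 against 194 ± 13.3 for origin 400 (SD, n = 3), a log2 difference of -0.37 (SE 0.24), and nas-13 (contig104364) had -0.60 (SE 0.38), each with a limma adjusted p of 0.998. The pool difference of contig210880 was 0.33 in origin 300 corals and -0.29 in origin 400 corals, and the difference between them, 0.62 (SE 0.31), did not pass (limma adjusted p = 0.9996). A Tolloid-like protein 1 contig under the minimum for testing (contig209735, chosen after its values were seen) did separate the origins. It had 2.90, 2.49 and 2.01 in pool 300 and 1.66, 1.74 and 2.11 in pool 400 in corals 2, 7 and 75, against 15.2, 13.2 and 7.61 in pool 300 and 8.26, 8.25 and 36.0 in pool 400 in corals 40, 68 and 70. Behind these were 1 to 4 reads a library in origin 300 corals and 6 to 52 in origin 400 corals, and with no minimum mean its log2 difference was -2.12 (limma SE 0.48, adjusted p = 0.445). How many contigs under the minimum separate the origins in this way was not counted.

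**Figure D5:**
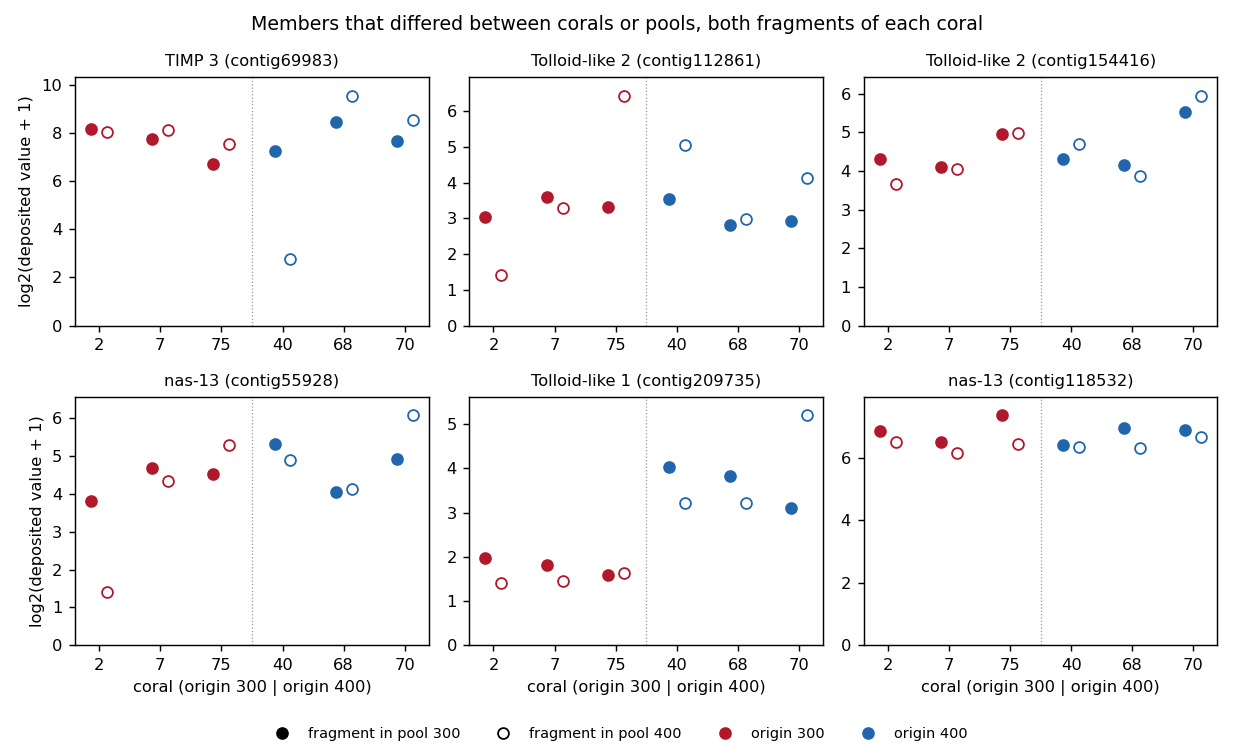
Log2(deposited value + 1) of 6 members in both fragments of each coral, with filled points for pool 300, open points for pool 400, red for origin 300 and blue for origin 400. In TIMP-3 contig69983 the open point of coral 40 stands apart, in Tolloid-like protein 1 contig209735 all red points lie below all blue points, and in nas-13 contig118532 each filled point lies above its open one.

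Coral within origin was the largest source of spread in 26 of 41 members (63.4%), and in 70.8% of all contigs. It took a median of 48.2% of the sum of squares in the tested members and 51.1% in all contigs, pool 3.96% and 2.37%, origin 3.87% and 6.01%, and the residual 22.1% and 24.8%. These shares are not divided by their degrees of freedom. Pool was the largest share in 7 of 41 members (17.1%), where it was in 2.60% of all contigs. These 7 were Matrix metalloproteinase-24 (55.5%), the Metalloproteinase inhibitor 4 contigs contig169856 (69.9%) and contig177119 (61.6%), Matrix metalloproteinase-25 contig60120 (44.3%), nas-13 contig118532 (42.6%) and the Tolloid-like protein 1 pair. The 6 ADAM 10 contigs had between 36.3% (contig167986) and 88.2% (contig15632) of theirs between corals of one origin. With the crossed pairs of corals 40 and 68 the median between corals of one origin was 44.0% in the members and 50.4% in all contigs, it was 61.6% in contig15632, and pool was the largest share in 6 members, without contig112801.

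The widest spread between coral means was in TIMP-3 contig69983 (SD 1.38 on the log2 scale), nas-13 contig55928 (SD 1.03), Tolloid-like protein 2 contig112861 (SD 0.95) and Tolloid-like protein 2 contig154416 (SD 0.69), where the median over members was 0.45 and over all contigs 0.42. With the crossed pairs the SD of contig69983 was 1.04, and that of the other contigs named here between 0.69 and 0.98. In contig112861 the pool 300 fragments ranged only from 6.02 to 11.2, while the pool 400 fragments of corals 75 and 40 had 85.6 and 32.2 and that of coral 2 had 1 read. In contig154416 both fragments of coral 70 were the highest, at 44.7 in pool 300 and 61.0 in pool 400, and those of coral 75 came next, at 30.2 and 30.6. In contig55928 the pool 400 fragment of coral 2, the shallowest library, had 1 read. The fragments of one coral thus stayed together in contig154416 and not in contig112861 or contig69983.

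The 18 members under the minimum mean had means of 3.21 to 9.97 and 41 to 136 reads over all 12 libraries. They included 6 of the 11 ADAMTS contigs and 10 of the 30 astacins, among them both contigs of nas-15. One of these (contig210424, chosen after its values were seen) had 1.45, 4.36, 10.1, 3.52, 13.2 and 0 in the pool 300 fragments of corals 2, 7, 75, 40, 68 and 70, against 24.8, 12.2, 16.9, 15.7, 9.62 and 5.54 in pool 400. It was lower in pool 300 in 5 corals and higher in coral 68, or lower in all 6 with the crossed pairs of corals 40 and 68, with a log2 difference of -1.59 (limma SE 0.49, adjusted p = 0.566 with no minimum mean). The other nas-15 contig (contig181105) had a log2 difference of -1.47 (limma SE 0.50, adjusted p = 0.709 with no minimum mean).

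Genes that act with these proteases were described from word lists. Among 96 tested substrates of the fibrous matrix and the basement membrane, 0 passed over 6 corals, and in origin 300 corals Usherin (contig55118), a basement membrane protein of mammals, rose by 1.32 on the log2 scale (limma SE 0.22, adjusted p = 0.0323). Between origins Fibrillin-1 (contig218313), a microfibril protein, was lower in origin 300 than in origin 400 corals, at a log2 difference of -5.25 (limma SE 0.58, adjusted p = 0.00873). Of all contigs, 0.344% passed over 6 corals, 0.554% in origin 300 corals and 0.0336% between origins. Values of Usherin and Fibrillin-1 in single corals and under other settings are not given here. In a pair of other lists, 25 contigs of BMP, chordin, noggin and procollagen terms and 27 of serine proteases and convertases that activate such enzymes, 0 passed in any comparison. The list of BMP terms holds contigs named Bone morphogenetic protein 1, which is itself a tolloid-type protease that its description kept out of the members. None of 5 other inhibitors, 45 other metallopeptidases or 12 integrin contigs passed either, and the medians of these 6 lists in origin 300 corals ran from 0.12 to 0.34, beside 0.13 for all contigs.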

How the data were processed

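The signal values analysed here are those the authors deposited, read counts per contig divided by a factor per library, and the pool 400 columns are marked as adjusted, per the file headers. The tools named are BWA and DESeq, per the submitters' processing notes, and their versions are not given in the sources used here. Whole reads were recovered from the steps between values (tolerance 0.01; 1 of 203760 values was not whole). The deposited table's 9 columns of group means, SDs and ratios were not used.

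On the log2(value + 1) scale, limma 3.58.1 (R 4.3.3; variance trend, Benjamini-Hochberg adjusted p under 0.05) was applied to contigs with a mean of at least 10. Such folds understate the change of low contigs, and a member can pass this minimum through the group in which it is high. For pool effects each coral was a block, its fragments being one animal; the 2 origins shared a residual spread. Origin was tested on coral means. As an alternative the recovered reads were tested with edgeR 4.0.16 (TMM, quasi-likelihood), summed per coral for origin. The fits were tested on simulated data. Depth describes counting error only.

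Members, word lists and tests were chosen with earlier results of these data known. Named contigs were those passing in a comparison, the 4 of smallest p in each comparison, the 3 of highest mean in each family, the 4 of widest spread between coral means, those at 0 in one coral and at 20 or more in another (0 found), and contig44450. Other members given with values were chosen after these were seen. A word boundary was added to the integrin pattern after its matches were seen. Levels are not compared between contigs, since contig lengths were not used here.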

Additional observations from a re-analysis of the deposited data

Results flagged for a closer look

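Among the 20 named members, 40 groups of 6 libraries of one pool were examined for a library far from the others, on the log2 scale, and 5 were found. The rule flags about 1 group in 20 by chance. These members were named in part for small p or wide spread in the same data, so the 5 cannot be set against that rate. In the pool 400 fragment of coral 40, Metalloproteinase inhibitor 3 (contig69983) had 5.78, and the next lowest was 183. In the pool 400 fragment of coral 7, nas-14 (contig185154) had 2.62, and the next lowest was 9.94. In the pool 400 fragment of coral 2, Disintegrin and metalloproteinase domain-containing protein 10 (contig178930) had 128, and the next highest was 61.9. In the pool 300 fragment of coral 70, Matrix metalloproteinase-25 contig82337 had 6.66, and the next lowest was 13.1. In the pool 400 fragment of coral 68, Matrix metalloproteinase-25 contig60120 had 83.9, and the next lowest was 140. Of these libraries, those of corals 40 and 68 carry the numbers that pair across, and that of coral 2 is the shallowest, and the part of either in these values was not tested.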

How the results depend on the processing

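Of the values of named members under other settings, 250 under planned settings and 18 under added ones kept their sign and their side of the threshold. Others passed newly (8 planned, 2 added), no longer passed (4) or changed sign (1 planned, 4 added). Over 6 corals, 0 members passed as reported, 2 with no minimum mean (where 0.342% of all contigs did) and 1 with no replicate block. There were 2 with the crossed block of corals 40 and 68 (Matrix metalloproteinase-24 and contig169856). Leaving out single corals gave 0 to 2, with the 2 found without coral 70. Apart from the reported fit and that with no minimum mean, the share of all contigs passing in each setting is not given here. These counts and those below are thus not a result about the members. In corals from pool 300 the 2 members became 1 with rescaling, 1 with edgeR and 0 to 2 with single corals left out, 0 of them without coral 2, whose pool 400 library is the shallowest, and 3 with the crossed block, without corals 40 and 68 and with rescaling without both, each time with contig60120 added. Each coral is paired with itself, and dropping this replicate block changed no other count. Leaving out single corals gave 0 members in the other 3 comparisons. Without corals 40 and 68, corals from pool 400 are coral 70 alone, assumed to vary like the others, and TIMP-4 contig169856 had a pool difference of 0.24 there. Rescaling without both corals was added after seeing the data: it gave 1 member for the difference between origins (contig169856), pool differences in coral 70 of 0.53 for Matrix metalloproteinase-24, 0.88 for contig169856 and 0.40 for contig177119, and a difference between origins of -0.060 for Tolloid-like protein 2 contig210880. The cause was not tested; the pool 400 library of coral 70 is the one whose scale rescaling moves most.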
